A study of Mus musculus with 2 samples.

Results

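Cycling glucagon-expressing cells were examined in dispersed islet cells of WT and *Npc1*-/- mice aged 2 weeks. A barcode was counted as *Gcg*-leading when glucagon transcripts outnumbered those of insulin (*Ins1* and *Ins2*), of somatostatin (*Sst*) and of the PP cell hormones (*Ppy* and *Pyy*), and made up at least 5% of its unique molecular identifiers (UMIs, each of which stands for 1 captured transcript). It was counted as cycling when *Mki67* and *Top2a* together gave at least 3 UMIs. By this rule 96 of 1063 *Gcg*-leading cells were cycling in WT islets and 81 of 862 in *Npc1*-/- islets, 177 of 1925 in all. They were set against the 851 WT and 685 *Npc1*-/- *Gcg*-leading cells without a UMI of either gene, called non-cycling here, and the 116 and 96 cells with 1 or 2 UMIs were kept apart from both. Because measured values of these cells chose them, every comparison of cycling with non-cycling cells is a description and carries no test.

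The α cell is the islet cell that makes glucagon, the hormone that raises blood glucose, and islet endocrine cells divide most in the early postnatal period. A dividing cell copies its DNA in S phase, when genes for replication licensing, nucleotide supply and histone deposition are transcribed, and then passes through G2 into mitosis (G2/M), when genes for the mitotic cyclins, the spindle and the kinetochore are at their peak. *Mki67* encodes the proliferation antigen Ki67, and *Top2a* the topoisomerase that untangles replicated DNA. NPC1 carries cholesterol out of lysosomes.

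The study had 1 WT and 1 *Npc1*-/- library. Both genotypes came from matings of *Npc1*+/- mice on the C57BL/6J background, and the *Npc1*-/- mice lack the gene in the whole body and not in islets alone. Each library was a pool of the islets of 3 female mice, digested with trypsin and sequenced with the 10x Genomics droplet method. With 1 library per genotype there is no spread between replicates, so genotype, litter and library preparation cannot be told apart, and no p-value can be given. The intervals below are exact 95% intervals for counting error only. The WT library held 8569 barcodes with 114324626 UMIs and the *Npc1*-/- library 7646 barcodes with 127122035 UMIs, of which 4628 and 4269 barcodes passed the filters. Before the filters the libraries shared 12 barcodes, among them 1 cycling *Gcg*-leading cell of the *Npc1*-/- library and none of the WT library.

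Of the markers of α and cycling cells the rule used *Gcg*, *Mki67* and *Top2a*, so their levels are no check of the name. *Gcg* made up a median of 27.1% of the UMIs of a cycling cell in WT islets (from 12.3% to 37.5%) and 26.9% in *Npc1*-/- islets (from 13.1% to 37.8%), and all 8 fixed α cell markers were detected in both libraries. Insulin took a median of 0.824% of UMIs in WT and 0.497% in *Npc1*-/- cycling cells, below the 1.05% and 0.678% of their non-cycling neighbours. At least 3 UMIs of the S phase markers *Mcm3* and *Hells* together were seen in 52 of the 96 WT and 39 of the 81 *Npc1*-/- cells. *Mcm3*, a subunit of the replicative helicase, stood at 92.3 CPM (the UMIs of a pool of cells rescaled to a sum of 1000000) in cycling and 7.92 CPM in non-cycling WT cells, and at 78.3 and 10.2 CPM in *Npc1*-/- cells.

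Most cycling cells lay far from the limit that selected them. Their median was 22 UMIs of *Mki67* and *Top2a* in WT and 26 in *Npc1*-/- islets, with at least 10 UMIs in 70 and 65 cells. Only 5 cells of each library sat at exactly 3 UMIs, where the median G2/M signal was 13.1 UMIs per 10000 in WT and 16.4 in *Npc1*-/- cells. The 24 WT and 20 *Npc1*-/- cells just outside, with 2 UMIs, held at least 3 UMIs of *Mcm3* and *Hells* in 7 and 5 cases.

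**Figure D1:**
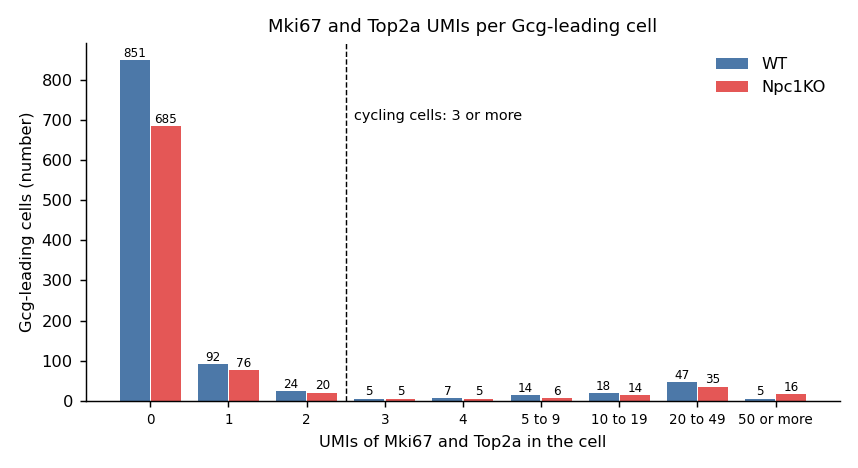
Number of *Gcg*-leading cells (vertical axis) by their summed UMIs of *Mki67* and *Top2a* (horizontal axis, binned) in the WT and the *Npc1*-/- library. Cells with 20 to 49 UMIs were the most frequent class among cycling cells, 47 in WT and 35 in *Npc1*-/- islets, and 5 WT against 16 *Npc1*-/- cells had 50 UMIs or more.

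Transcripts listed as markers of other cell types were present in these barcodes, first of all those of other islet hormones. The study took raised *Tspan8*, *Ppy* and *Pyy*, the PP markers here, as marks of immature α and β cells. The 3 PP markers, *Pyy* the most abundant, summed to 22032 CPM in WT and 23272 CPM in *Npc1*-/- cycling cells and to 26096 and 34497 CPM in non-cycling cells, and 95 and 80 cycling cells held 10 UMIs or more. The 10 β cell markers summed to 12638 and 13247 CPM (14900 and 12014 CPM in non-cycling cells), and the 4 δ cell markers to 1246 and 2169 CPM (3618 and 3423 CPM). *Ghrl*, which encodes ghrelin, had at least 3 UMIs in 32 and 24 cycling cells. At least 3 UMIs of the 6 duct markers were found in 81 WT (84.4%) and 75 *Npc1*-/- (92.6%) cycling cells, and in 87.8% and 90.2% of non-cycling cells. The duct list summed to 309 and 379 CPM in cycling and 417 and 406 CPM in non-cycling cells, with the keratin *Krt18* the most abundant except in *Npc1*-/- cycling cells, where it was *Krt7*. Of the duct markers *Krt19* and *Cftr* were at 0 in WT cycling cells, and *Cftr* in *Npc1*-/- cycling cells. The 8 acinar markers, *Ctrb1* the most abundant, reached 3 UMIs in 1 WT and 9 *Npc1*-/- cycling cells and summed to 14.6 and 38.7 CPM, against 33.2 and 48.2 CPM in non-cycling cells. The 6 macrophage markers, *C1qa* the most abundant, reached 3 UMIs in 5 WT and 8 *Npc1*-/- cycling cells, with at most 7 and 6 UMIs in a cell, and summed to 29.7 and 28.5 CPM, against 62.0 and 68.4 CPM in non-cycling cells. The 6 fibroblast markers, *Col1a2* the most abundant, reached it in 4 and 3 cells and summed to 18.3 and 17.5 CPM. In WT islets 1 cycling barcode held 344 of the 353 UMIs of the 6 B cell markers (*Igkc* the most abundant), which summed to 161 CPM in cycling and 11.8 CPM in non-cycling cells, and another barcode held 239 of the 332 UMIs of the 7 endothelial markers (*Plvap* the most abundant; 152 CPM against 63.3 CPM). In *Npc1*-/- islets the corresponding sums were 7 UMIs for the B cell list, with *Ms4a1*, *Cd79b* and *Ighm* at 0, and 41 UMIs for the endothelial list, while 1 barcode held 78 of 83 UMIs of the 5 stellate and pericyte markers. Neutrophil markers were at 0 in the cycling cells of both libraries, and T cell markers gave 1 UMI in WT and 0 in *Npc1*-/- cycling cells. In all, 4 WT (4.17%) and 1 *Npc1*-/- (1.23%) cycling cells, against 2.12% and 2.19% of non-cycling cells, held 10 or more UMIs of the markers of a single endothelial, stromal, Schwann or immune type. Duct and acinar markers were not part of this limit, and the part of their transcripts in the results was not tested. For the hormones, stricter limits on *Gcg* and insulin were tried as an alternative given below. The part of the other hormone transcripts was not tested. Ratios between the genotypes that moved without the barcodes over this limit are given both ways, other than those of B cell genes.

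*Gcg*-leading cells were cycling at nearly the same share in both libraries, which was 9.03% (7.38% to 10.9%) in WT and 9.40% (7.53% to 11.5%) in *Npc1*-/- islets. The ratio of *Npc1*-/- over WT was 1.04, with an interval for counting cells from 0.764 to 1.41, which says nothing of the spread between mice or libraries. Among *Ins*-leading cells 5.34% (4.38% to 6.45%) of WT and 4.80% (3.87% to 5.88%) of *Npc1*-/- cells met the same limit, although their median depth was higher (30100 and 30074 UMIs against 17108 and 19101 UMIs of *Gcg*-leading cells). PP-leading cells gave 6.59% (4.42% to 9.38%) and 5.16% (3.33% to 7.58%) at medians of 18641 and 19366 UMIs. *Sst*-leading cells, with medians of 14411 and 15846 UMIs, gave the lowest shares, 3.50% (1.42% to 7.08%) and 2.61% (0.717% to 6.56%), from 7 and 4 cells. No class known to lack these genes was at hand as a background. *Gcg*-leading cells were 41.2% (34.8% to 47.8%) of all cycling hormone-leading cells in WT and 41.1% (34.2% to 48.3%) in *Npc1*-/- islets, but 29.6% and 26.0% of all hormone-leading cells.

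The share of *Gcg*-leading cells was above those of the other hormone classes at an equal number of total UMIs too. With every cell thinned to 10000 UMIs, 82 of 978 WT (8.38%, 6.72% to 10.3%) and 68 of 797 *Npc1*-/- (8.53%, 6.69% to 10.7%) *Gcg*-leading cells kept at least 3 UMIs. *Ins*-leading cells gave 4.40% (3.49% to 5.47%) and 4.11% (3.22% to 5.16%). PP-leading cells gave 5.54% (3.51% to 8.27%) and 3.50% (1.97% to 5.71%), and *Sst*-leading cells 2.23% (0.612% to 5.62%) and 2.74% (0.751% to 6.87%). The intervals of WT PP-leading and of *Npc1*-/- *Sst*-leading cells overlapped those of *Gcg*-leading cells. *Ins*-leading and PP-leading cells of the *Npc1*-/- library changed places by thinning, within their intervals. Equal totals did not leave equal numbers of UMIs for genes other than the hormones. Insulin took a median of 53.4% of UMIs in WT and 51.5% in *Npc1*-/- non-cycling *Ins*-leading cells. *Gcg* took 30.8% and 30.4% in non-cycling *Gcg*-leading cells. The part of this difference in the shares was not tested. The thinning left out 85 WT and 65 *Npc1*-/- *Gcg*-leading cells as too shallow.

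Cycling cells had more UMIs than their non-cycling neighbours, a difference that the rule favours, since a deep barcode reaches 3 UMIs more easily and a shallow one more easily has 0. The median was 22796 UMIs and 4500 genes in WT cycling cells against 16608 UMIs and 3573 genes in non-cycling cells, and 26633 UMIs and 4966 genes against 18274 and 3810 in *Npc1*-/- islets. Cycling cells with 3 to 9 UMIs of the genes of the rule had a median of 15625 UMIs in WT, below the non-cycling cells, and of 21618 UMIs in *Npc1*-/- islets. The ranges were wide, from 3676 to 46888 UMIs in WT and from 5427 to 48164 UMIs in *Npc1*-/- cycling cells. Mitochondrial transcripts took slightly less of the total, 3.80% against 4.16% in WT and 3.71% against 4.16% in *Npc1*-/- cells. Doublets, droplets with a pair of cells, also hold more UMIs: the highest Scrublet scores, up to the expected doublet rate, fell on 12.5% of WT and 8.64% of *Npc1*-/- cycling cells and on 4.82% of non-cycling cells in both libraries. The parts of doublets and of the rule in the number of UMIs were not tested.

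The cycling cells were spread over S phase and G2/M, as described by the sums over 45 S phase and 55 G2/M genes, the latter without *Mki67* and *Top2a*. S phase transcripts had a median of 40.1 UMIs per 10000 in WT cycling cells (from 2.99 to 77.6) and 33.3 in *Npc1*-/- cycling cells (from 1.23 to 103), against 2.85 and 3.03 in non-cycling cells. G2/M transcripts had medians of 89.4 (from 9.90 to 225) and 121 (from 8.19 to 304), against 6.40 and 6.59. The ranges of the genotypes overlapped almost throughout, but 11 of the 81 *Npc1*-/- cells lay above the highest WT cell on the G2/M axis. More S phase than G2/M UMIs were found in 26 WT cells (27.1%, interval 18.5% to 37.1%) and 18 *Npc1*-/- cells (22.2%, interval 13.7% to 32.8%), a cut that 10 WT and 3 *Npc1*-/- cells lay within 1.25-fold of. Little of both was found in 2 WT and 2 *Npc1*-/- cells, with under 15 UMIs per 10000 on either axis, and the cut puts them with the G2/M group. The S phase group held fewer UMIs of the genes of the rule, with medians of 8 and 10 against 29 and 31 in the G2/M group, and its median *Gcg* share was 28.2% in WT and 25.6% in *Npc1*-/- islets against 26.4% and 27.2%.

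**Figure D2:**
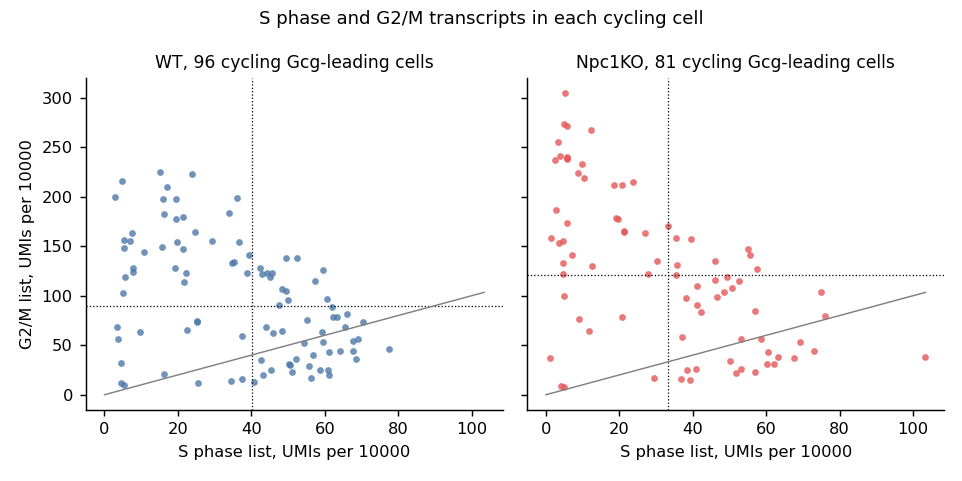
S phase UMIs (horizontal axis) against G2/M UMIs (vertical axis), both per 10000 UMIs of the cell, for the 96 WT and 81 *Npc1*-/- cycling *Gcg*-leading cells, each point a cell, with dotted lines at the medians and a grey line where both values are equal. Points below the grey line are the 26 WT and 18 *Npc1*-/- cells with more S phase than G2/M UMIs, and the 11 *Npc1*-/- cells above 225 on the vertical axis exceed every WT cell.

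Cycling and non-cycling cells were next compared gene by gene on summed UMIs (2188491 and 14271051 UMIs in WT, 2171663 and 12932613 in *Npc1*-/- cells). Ratios are given as log2 of cycling over non-cycling, relative to the median gene of the same library, which itself lay at 0.06 in WT and 0.02 in *Npc1*-/- cells. Of the 8148 genes that reached 10 CPM in cycling or non-cycling cells of each library, 716 (8.79%) were at least 2-fold higher in cycling cells in both libraries and 101 (1.24%) at least 2-fold lower. Since the cells were chosen by genes of the cell cycle, nothing is read from the first of these counts.

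DNA replication genes were higher in cycling cells. All 44 compared genes of the S phase list lay above the median gene in both libraries (40% of all genes did), 41 of them at least 2-fold, and the list median was 3.57 in WT and 3.15 in *Npc1*-/- cells. *Rrm2*, the subunit of ribonucleotide reductase that is made in S phase, was the most contrasted, at 145 CPM in cycling and 0.491 CPM in non-cycling WT cells and at 93.5 and 0.309 CPM in *Npc1*-/- cells. *Tyms*, which makes thymidylate, measured 323 and 13.8 CPM in WT and 221 and 13.0 CPM in *Npc1*-/- cells. *Pcna*, the sliding clamp of the replicative polymerases, stood at 115 and 13.5 CPM in WT and 89.3 and 13.8 CPM in *Npc1*-/- cells. For these 3 genes each cycling pool was well above both non-cycling pools, and the WT cycling pool was the highest of all.

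The genes of G2 and mitosis were lower in non-cycling cells by a wider margin. Without *Mki67* and *Top2a*, which are at 0 in non-cycling cells by the rule, all 55 genes lay above the median gene and 54 were at least 2-fold higher, with list medians of 6.97 in WT and 6.92 in *Npc1*-/- cells. *Ube2c*, the ubiquitin-conjugating enzyme of the anaphase-promoting complex, reached 574 CPM in WT against 885 CPM in *Npc1*-/- cycling cells, against 1.75 and 1.86 CPM in non-cycling cells. *Cdc20*, an activator of that complex, reached 180 and 284 CPM against 1.68 and 1.24 CPM. *Cdk1*, the kinase that starts mitosis, reached 377 and 490 CPM against 1.61 and 2.09 CPM. In all 3 the *Npc1*-/- cycling pool was the highest.

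By the rule for named genes, the 15 genes with the largest contrast in both libraries were *Ckap2l*, *Knl1*, *Mxd3*, *Nusap1*, *Pbk*, *Ube2c*, *Tpx2*, *Hmmr*, *Melk*, *Rrm2*, *Ska1*, *Iqgap3*, *Aurkb*, *Birc5* and *Nuf2*. Since the cells were chosen by *Mki67* and *Top2a*, genes of the same phase were favoured. Of the 15 genes *Tpx2* and *Nusap1* organise spindle microtubules, *Knl1*, *Ska1* and *Nuf2* join chromosomes to them, and *Aurkb* and *Birc5* are subunits of the chromosomal passenger complex. *Mxd3* belongs to the MAX dimerisation proteins and was measured by 306 UMIs in WT and 258 UMIs in *Npc1*-/- cycling cells, against 5 and 3 UMIs in all non-cycling cells. *Birc5* was measured by 634 and 670 UMIs against 16 and 5, a log2 ratio of 7.91 (7.25 to 8.77) in WT and 9.49 (8.39 to 11.25) in *Npc1*-/- cells. *Ckap2l* had 177 and 232 UMIs in cycling cells and 1 UMI in each non-cycling pool, so that its log2 ratios of 9.53 and 9.83 have lower bounds of 7.62 and 7.92 and upper bounds of 15.43 and 15.72.

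The promoters of the lists differed in the short motifs they held. In the RefSeq promoters of the mouse genome (build GRCm38.p6, 250 bases before to 50 bases after the transcription start, both strands searched), the letters TTTGAA of the cell cycle homology region (CHR) were found in 35 of 54 promoters of G2/M genes (64.8%), in 6 of 37 promoters of S phase genes (16.2%) and in 17.9% of all 32851 promoters. The E2F spellings TTTGGCGC, TTTGCCGC, TTTCGCGC and TTTCCCGC were found in 14 of the 37 S phase promoters (37.8%), 3 of the 54 G2/M promoters (5.56%) and 2.26% of all. The CCAAT box (CCAAT) was frequent in both, at 75.9% of G2/M and 70.3% of S phase promoters against 37.4% of all, and CHR and CCAAT box occurred together in 51.9%, 10.8% and 6.95%. Promoters were matched for 49 of the 57 G2/M genes, *Mki67* and *Top2a* included, and for 33 of the 45 S phase genes, some with more than 1 start. A match of letters is a description and not a bound site.

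The last 150 bases before the start of 2 S phase and 2 G2/M genes show the difference, each written 5′ to 3′ on the strand of the gene, with matches of any of the 3 motifs on either strand in capitals. They were picked after the matches were known. *Hells*, a chromatin remodeller of S phase (chr19:38930840-38930989, plus strand), holds the E2F spelling TTTCCCGC. *Mcm6*, a helicase subunit (chr1:128359706-128359855, minus strand), holds overlapping and separate E2F spellings and the CCAAT box in reverse (ATTGG). *Cdc20* (chr4:118437344-118437493, minus strand) and *Ube2c* (chr2:164769779-164769928, plus strand) hold a CHR near the start, that of *Ube2c* in reverse (TTCAAA). The CCAAT boxes of *Ube2c* lie before its CHR, whereas *Cdc20* has 1 before and 1 after it. Not every gene followed: in the whole windows *Ccnb1* held CCAAT boxes without TTTGAA, and *Pcna* held no E2F spelling.
Hells: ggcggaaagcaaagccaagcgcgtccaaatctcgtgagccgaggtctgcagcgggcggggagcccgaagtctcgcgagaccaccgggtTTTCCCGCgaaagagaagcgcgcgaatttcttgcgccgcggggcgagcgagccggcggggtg
Mcm6: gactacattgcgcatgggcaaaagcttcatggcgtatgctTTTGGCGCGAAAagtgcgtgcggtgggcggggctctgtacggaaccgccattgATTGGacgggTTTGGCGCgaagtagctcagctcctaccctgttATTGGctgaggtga
Cdc20: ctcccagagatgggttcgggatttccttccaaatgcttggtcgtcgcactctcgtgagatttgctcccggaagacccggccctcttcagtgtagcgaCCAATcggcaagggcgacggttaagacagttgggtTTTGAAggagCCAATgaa
Ube2c: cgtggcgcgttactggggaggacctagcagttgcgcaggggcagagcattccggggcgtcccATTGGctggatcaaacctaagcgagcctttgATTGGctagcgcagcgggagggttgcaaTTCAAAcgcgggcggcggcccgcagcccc

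The regulators that move cells into the cycle were mostly, but not all, higher in cycling cells. Of 17 compared driver genes 15 lay above the median gene in both libraries (40% of all genes did), 12 of them at least 2-fold (8.79%). *E2f1*, a transcription factor of S phase genes, stood at 89.6 CPM in cycling and 9.88 CPM in non-cycling WT cells and at 53.4 and 10.2 CPM in *Npc1*-/- cells, and *Foxm1*, a transcription factor of mitotic genes, at 43.9 and 0.631 CPM and at 53.4 and 0.773 CPM. *Ezh2*, the Polycomb methyltransferase known to support β cell replication, stood at 125 and 6.38 CPM in WT and 117 and 7.89 CPM in *Npc1*-/- cells. The 2 exceptions were the D-type cyclins *Ccnd1* and *Ccnd2*. *Ccnd2*, the driver with the most UMIs, was at 1124 CPM in cycling and 1336 CPM in non-cycling WT cells and at 989 and 1305 CPM in *Npc1*-/- cells, a log2 ratio of -0.31 and -0.42, while its partner kinase *Cdk4* was about 2-fold higher in cycling cells (0.99 and 0.91).

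Several brakes of the cycle were also more abundant in cycling cells. Of 16 compared genes, 11 lay above and 5 below the median gene in both libraries (40% and 41.5% of all genes did), and 6 were at least 2-fold higher (8.79% of all genes were). *Cdkn2c*, an inhibitor of CDK4 and CDK6, stood at 210 CPM in cycling against 5.12 CPM in non-cycling WT cells and at 220 against 6.11 CPM in *Npc1*-/- cells. *Cdkn2d*, of the same family, stood at 222 against 19.2 CPM and 196 against 16.3 CPM. *Cdkn1a*, the p21 inhibitor induced by p53, measured 190 against 75.5 CPM and 171 against 56.5 CPM. *Btg2*, an antiproliferative gene, went the other way, with log2 ratios of -0.99 and -0.88 (174 against 332 CPM in WT and 108 against 196 CPM in *Npc1*-/- cells).

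Chromatin and nucleotide genes accompanied replication. All 21 genes of the chromatin list lay above the median gene and 19 were at least 2-fold higher in both libraries (40% and 8.79% of all genes, also for the next counts), with medians of 2.04 and 2.12. *Stmn1*, which destabilises microtubules, reached 1692 CPM against 15.9 CPM in WT and 1677 against 18.9 CPM in *Npc1*-/- cells, and *H2afz*, a histone variant, 2949 against 353 CPM and 2958 against 383 CPM. Of 18 nucleotide synthesis genes 15 lay above the median gene, 10 of them 2-fold, led by *Tk1*, thymidine kinase, at 79.0 against 0.420 CPM and 59.4 against 0.387 CPM. Ribosome biogenesis genes differed less, with medians of 0.35 and 0.14. Of 18 genes 11 lay above and 3 below the median gene in both libraries (40% and 41.5% of all genes did). Only 1 was at 2-fold, *Nop56*, a small nucleolar ribonucleoprotein subunit (1.35 and 1.05).

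Most genes of α cell identity were somewhat lower in cycling cells, but their summed transcripts were level in WT. The list summed to 29836.5 CPM in cycling and 29890.3 CPM in non-cycling WT cells, and to 25624.6 and 27339.2 CPM in *Npc1*-/- cells. *Gcg*, which the rule used and which is not in the list, is given as a description, and measured 267161 CPM in cycling and 308887 CPM in non-cycling WT cells and 273766 and 302998 CPM in *Npc1*-/- cells, a log2 ratio of -0.27 and -0.16. Of 27 compared identity genes 20 lay below the median gene in both libraries (41.5% of all genes did) and 1 above it, but none by 2-fold in both, and the list medians were -0.30 in WT and -0.20 in *Npc1*-/- cells. *Irx2*, a homeobox transcription factor, showed 126 against 149 CPM and 128 against 144 CPM. The exception was *Gc*, vitamin D-binding protein, which was higher in cycling cells, at 176 against 127 CPM and 147 against 106 CPM.

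The genes of the secretory granule showed the same tilt. Of 29 compared genes 21 lay below and 5 above the median gene in both libraries (41.5% and 40% of all genes did), and the medians were -0.30 in WT and -0.34 in *Npc1*-/- cells. *Pcsk2*, the convertase that cuts proglucagon to glucagon, measured 2708 against 3194 CPM in WT and 2267 against 2757 CPM in *Npc1*-/- cells. The exocytosis genes *Syt7* (-0.71 and -0.63), *Syt13* (-0.70 and -0.62) and *Cadps* (-0.69 and -1.22) were further below. *Vgf*, a granule peptide precursor, was the only 2-fold exception, at 249 against 103 CPM in WT and 183 against 80.0 CPM in *Npc1*-/- cells, log2 ratios of 1.22 and 1.18.

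**Figure D3:**
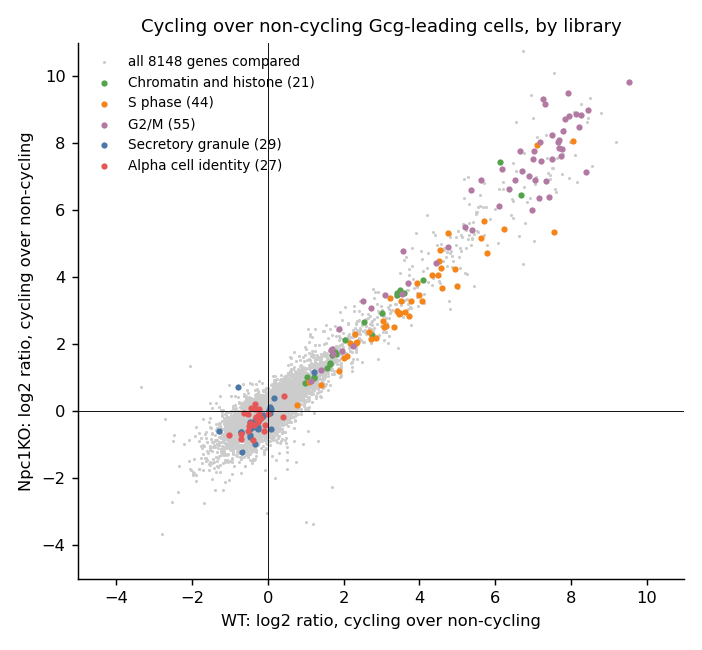
Log2 ratio of cycling over non-cycling *Gcg*-leading cells in WT (horizontal axis) and *Npc1*-/- islets (vertical axis), relative to the median gene, for 8148 genes in grey and for the genes of 5 lists in colour (55 G2/M, 44 S phase, 21 chromatin, 29 granule and 27 α identity genes). In both libraries the G2/M list had the highest median, followed by the S phase and chromatin lists, and the medians of the granule and α identity lists lay just below 0.

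The genes furthest below non-cycling cells were picked by the rule for named genes. They were *Cldn4*, *Vwa5b2*, *Fabp3*, *Mapk15*, *Aldoa*, *Scn3a*, *Mvp*, *Psen2*, *Baiap3*, *Dlgap4*, *Slc37a4*, *Creld1*, *Flot1*, *Sgsm1* and *Dusp26*. *Cldn4*, a tight junction protein, stood at 11.4 CPM in cycling and 43.7 CPM in non-cycling WT cells and at 12.9 and 48.6 CPM in *Npc1*-/- cells, log2 ratios of -1.96 (-2.63 to -1.42) and -1.91 (-2.53 to -1.39). *Vwa5b2*, a gene with a von Willebrand factor A domain, measured 33.4 and 119 CPM and then 27.2 and 101 CPM (-1.88 and -1.90). *Aldoa*, the glycolytic aldolase A, stood at 53.9 and 183 CPM and at 59.9 and 196 CPM (-1.81 and -1.72), but its symbol is carried by 2 identifiers of neighbouring loci, so reads could be split between them.

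That both cycling pools were below both non-cycling pools in each of the 15 genes follows from how they were picked, and most of them reached 20 CPM only in non-cycling cells. Some of the set act in excitability and secretion. *Scn3a*, a voltage-gated sodium channel of endocrine cells, stood at 11.9 against 41.3 CPM in WT and 10.6 against 35.0 CPM in *Npc1*-/- cells, and *Baiap3*, a Munc13 relative in dense-core vesicle traffic, at 27.0 against 75.6 CPM and 25.8 against 73.3 CPM. *Slc37a4*, the glucose 6-phosphate transporter of the endoplasmic reticulum, stood at 8.22 against 22.5 CPM and 9.21 against 27.0 CPM. *Mapk15*, an atypical MAP kinase, showed 19.2 against 76.7 CPM and 25.8 against 87.1 CPM. The cycling values of the 11 scarcest genes rest on 13 to 28 UMIs each, for instance 13 UMIs of *Fabp3*, a fatty acid-binding protein, in either library.

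**Figure D4:**
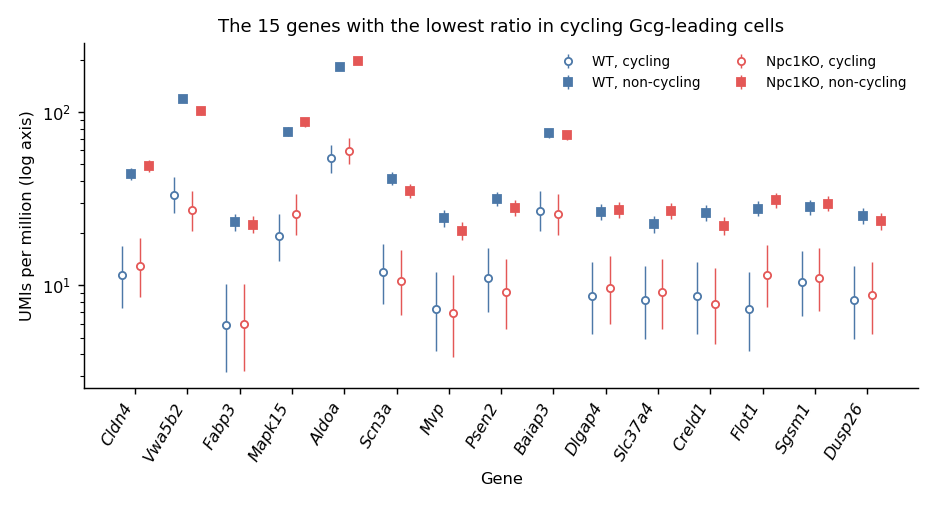
CPM (vertical log axis) of the 15 lowest genes (horizontal axis) in cycling and non-cycling *Gcg*-leading cells of both libraries, with bars for the exact 95% Poisson interval. As the choice of these genes fixes, the cycling points of both genotypes lie below the non-cycling points, *Cldn4* for instance at 11.4 and 12.9 CPM against 43.7 and 48.6 CPM.

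Other gene groups had list medians closer to 0 than the S phase, G2/M and chromatin lists. All 12 compared mitochondrially encoded genes lay below the median gene in both libraries, by a median of only 0.16 in WT (-0.16) and 0.21 in *Npc1*-/- cells (-0.21), while the 76 nuclear oxidative phosphorylation genes were spread around it (37 above and 24 below in both libraries, medians 0.03 and 0.05). Of 45 lysosomal genes 28 lay below and 6 above in both libraries (41.5% and 40% of all genes did), with medians of -0.13 and -0.16, and of 16 sterol genes 5 lay above and 5 below. Among 14 apoptosis genes 4 were at least 2-fold higher in cycling cells (8.79% of all genes were), among them the initiator caspase *Casp8* and the apoptosome scaffold *Apaf1*, each below 30 CPM, and the list medians were 0.29 and 0.32. Integrated stress response genes had medians of 0.34 and 0.27 over 14 genes, 9 of them above and 5 below the median gene in both libraries, and genes known to respond to tissue dissociation had -0.34 and -0.22 over 18 genes, with 4 above and 11 below. Amino acid transporters had medians of -0.30 in WT and 0.04 in *Npc1*-/- cells over 11 genes. Progenitor genes (6 of 14 compared, medians -0.20 and -0.07) and growth factor receptors (6 of 21 compared, medians -0.25 and -0.26) were too scarce to describe further.

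The genotypes were then compared within the cycling cells. *Npc1* itself was near the detection limit, with 14 UMIs (6.40 CPM) in WT and 7 UMIs (3.22 CPM) in *Npc1*-/- cycling cells, a log2 ratio of -0.92 with an interval from -2.52 to 0.43. In non-cycling cells it fell on the same side with more counts, 137 UMIs (9.60 CPM) against 75 UMIs (5.80 CPM), a log2 ratio of -0.75 (-1.18 to -0.33). Transcripts of *Npc1* were thus not absent from the library labelled knockout, and UMIs at the 3′ end do not show whether the mutated part of the gene was transcribed. *Xist*, the X-inactivation RNA, was abundant in both, at 1415 CPM in WT against 1288 CPM in *Npc1*-/- cycling cells, as the labels' female mice call for.

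Of 8327 genes compared between genotypes, 73 (0.877%) were at least 2-fold higher and 130 (1.56%) at least 2-fold lower in *Npc1*-/- cycling cells, relative to the median gene at -0.02. The balance was not kept without doubtful cells, with 134 genes higher and 111 lower without the highest doublet scores, 131 and 101 with a stricter hormone purity, and 81 and 82 without the barcodes over the limit of endothelial, stromal, Schwann or immune markers. In non-cycling cells, which had 14271051 and 12932613 UMIs against 2188491 and 2171663, the counts were 7 (0.0906%) and 18 (0.233%) of 7724 genes. Of the 73 and 130 genes, 54 and 78 were below 20 CPM in both libraries, and 1 and 14 were also 2-fold apart in non-cycling cells in the same direction. An interval without the median gene was found for 554 genes above it (6.65%) and 504 below it (6.05%).

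S phase genes were lower and G2/M genes higher in *Npc1*-/- than in WT cycling cells. Of 44 S phase genes 41 were below the median gene when *Npc1*-/- were set against WT cycling cells (50% of all genes were), 14 of them with their whole interval (6.05% of all genes), and the list median was -0.25. Of 55 G2/M genes 45 lay above the median gene (50% of all genes did), 27 with their whole interval (6.65%), 1 lay below with its whole interval, and the list median was 0.26. In non-cycling cells the medians were 0.15 over the 17 S phase genes and 0.03 over the 14 G2/M genes that could be compared. Summed over the lists, S phase transcripts were at 3712 CPM in WT against 3038 CPM in *Npc1*-/- cycling cells, and G2/M transcripts at 10060 and 12314 CPM, whereas the chromatin list was level at 14906 and 14794 CPM.

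Single genes carried this pattern with different strength. *Ccnb1*, the mitotic cyclin B1 (chr13:100778650-100786570, minus strand), stood at 96.0 CPM in WT against 197 CPM in *Npc1*-/- cells, a log2 ratio of 1.05 (0.81 to 1.30), the highest of the G2/M list. Of the mitotic genes described above, *Cdc20* had 180 and 284 CPM (0.67, 0.49 to 0.86), *Ube2c* 574 and 885 CPM (0.64, 0.54 to 0.75) and *Cdk1* 377 and 490 CPM (0.40, 0.27 to 0.53). *Rangap1*, the RAN GTPase activator, was the lowest of the list, at 218 and 169 CPM (-0.34, -0.54 to -0.15). On the S phase side *Ccne2*, cyclin E2, measured 40.7 and 22.6 CPM (-0.82, -1.37 to -0.31), *Rrm2* at 145 and 93.5 CPM (-0.61, -0.87 to -0.35), *Tyms* at 323 and 221 CPM (-0.53, -0.70 to -0.36) and *Hells* at 88.2 and 62.2 CPM (-0.48, -0.81 to -0.16). The helicase subunits *Mcm3* (-0.22, -0.52 to 0.08) and *Mcm6* (-0.02, -0.29 to 0.26) had intervals that included 0. The genes of the rule lay between, *Mki67* at 439 and 498 CPM (0.20) and *Top2a* at 561 and 579 CPM (0.07).

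Among 17 compared driver genes, 5 lay above and 12 below the median gene in *Npc1*-/- cycling cells, 1 and 3 with their whole interval (6.65% and 6.05% of all genes), and the list median was -0.12. *E2f1* stood at 89.6 CPM in WT against 53.4 CPM in *Npc1*-/- cycling cells (-0.72, -1.07 to -0.39) and *Cdc25a*, the phosphatase of the entry into S phase, at 46.6 and 30.4 CPM (-0.59, -1.07 to -0.14). *Cdc25b*, the phosphatase of the entry into mitosis, measured 34.3 and 59.9 CPM (0.82, 0.40 to 1.25). Of 20 nucleotide synthesis genes 14 lay below the median gene, 6 with their whole interval (6.05% of all genes) and 0 above it with theirs, with a list median of -0.25. *Mthfd2*, of mitochondrial folate metabolism, stood at 99.6 and 63.1 CPM (-0.64, -0.96 to -0.33). Each of these pools sums 96 WT or 81 *Npc1*-/- cells, and a pooled value does not separate the number of cells in a phase from the level in each cell, for which the values per cell are given above.

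For comparison, cycling *Ins*-leading cells of the same libraries are given beside these values. Their S phase list had a median of -0.43 over 43 genes, and their G2/M list a median of -0.07 over 55 genes, with 16 genes above and 39 below the median gene, 3 and 14 of them with their whole interval. Of all 7612 genes compared in these cells 50% lay above and 49.9% below the median gene, 9.38% and 12.3% with their whole interval. The median G2/M signal per cell was 78.3 UMIs per 10000 in WT and 68.0 in *Npc1*-/- cycling *Ins*-leading cells, and the S phase signal 22.3 and 15.4. The difference between the cell classes was not tested, since each has 1 library per genotype.

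**Figure D5:**
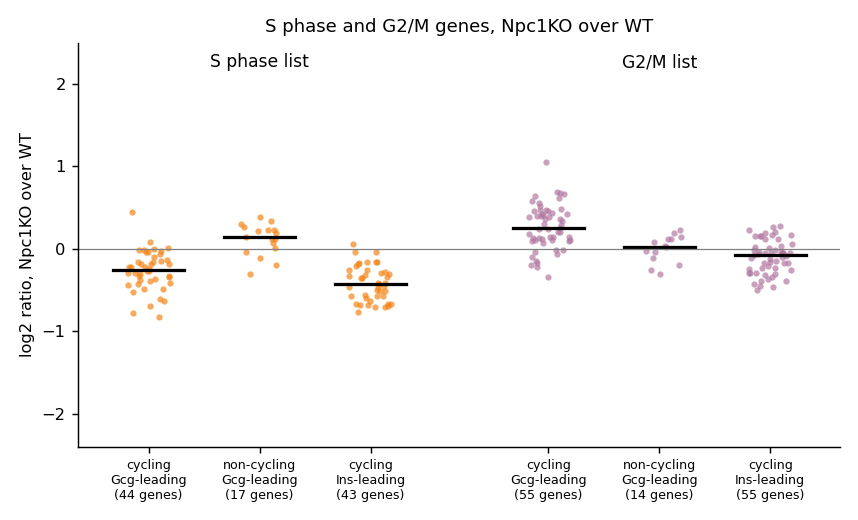
Log2 ratio of *Npc1*-/- over WT (vertical axis, relative to the median gene) for S phase and G2/M genes in cycling *Gcg*-leading, non-cycling *Gcg*-leading and cycling *Ins*-leading cells, each point a gene and each black bar the median of its strip. In cycling *Gcg*-leading cells the medians lie at -0.25 for S phase and 0.26 for G2/M genes, in cycling *Ins*-leading cells at -0.43 and -0.07.

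These medians differed without barcodes that may hold more than 1 cell. Without the highest doublet scores (84 WT and 74 *Npc1*-/- cells left) they were -0.38 and 0.41, and with a stricter hormone purity (81 and 69 cells) -0.42 and 0.52, so the separation of S phase from G2/M genes was wider without these cells. Without the barcodes with 10 or more UMIs of an endothelial, stromal, Schwann or immune type they were -0.32 and 0.32.

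By the rule for named genes, the genes most above WT in *Npc1*-/- cycling cells included *Sst*, *Gm42047*, *S100a10*, *Ccnb1*, *Kpna2*, *Cep89*, *Kif20a*, *Cdc25b* and *Aspm*. *Sst*, somatostatin, measured 480 CPM in WT against 1529 CPM in *Npc1*-/- cells (1.69). However, 45.6% of the WT and 84.6% of the *Npc1*-/- UMIs came from 1 cell of the library, and without the highest doublet scores the ratio was -0.18. The mitotic genes *Kif20a*, a kinesin of cytokinesis (32.9 and 61.7 CPM), *Aspm*, a spindle pole protein (45.2 and 78.7 CPM), and *Kpna2*, an importin α (29.7 and 58.5 CPM), were higher beside *Ccnb1*, and all 3 were under 5 CPM in non-cycling cells. *S100a10*, the annexin A2 partner, stood at 23.3 and 57.1 CPM (1.30, 0.83 to 1.81) in cycling cells and at 10.4 and 11.4 CPM in non-cycling cells, and its ratio in cycling cells was 1.98 without the highest doublet scores and 1.83 without the barcodes over the limit of endothelial, stromal, Schwann or immune markers.

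The genes most below WT were *Cd74*, *Ly6d*, *Ighm*, *Igkc*, *Klf2*, *Gm47283*, *Hspa1a*, *Hspb1*, *Sparc* and *Apoe*. The first 4 of these are genes of B cells and rested on 1 WT barcode, which held 98.4% of the 252 UMIs of *Cd74*, 98.6% of the 144 of *Ly6d*, 98.5% of the 131 of *Ighm* and 96.9% of the 162 of *Igkc*. *Sparc*, a matricellular protein of endothelial and stromal cells, had 62.6% of its 211 WT and 75.0% of its 56 *Npc1*-/- UMIs in 1 cell. Its log2 ratio of -1.87 turned to 0.07 without the barcodes with 10 or more UMIs of an endothelial, stromal, Schwann or immune type, and that of *Apoe*, an apolipoprotein abundant in macrophages, from -1.62 to 0.13. The remaining 4 genes were also below WT in non-cycling cells. *Gm47283*, an unnamed gene annotated at the end of chromosome Y, measured 129 and 27.2 CPM (-2.22) in cycling and 69.0 and 14.8 CPM (-2.24) in non-cycling cells. *Klf2*, a Krüppel-like transcription factor, stood at 56.7 and 10.6 CPM (-2.38) in cycling and 40.2 and 19.3 CPM (-1.08) in non-cycling cells, and without the highest doublet scores the ratio in cycling cells was -1.58.

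*Hspa1a* and *Hspb1*, which encode inducible heat shock proteins, belonged to a wider group. Of 21 compared genes of the list of genes known to respond to tissue dissociation, 21 were below the median gene in *Npc1*-/- cycling cells, 20 with their whole interval (6.05% of all genes) and 11 at least 2-fold (1.56% of all genes), with a list median of -1.04. *Hspa1a* stood at 243 CPM in WT against 54.3 CPM in *Npc1*-/- cycling cells (-2.14, -2.44 to -1.85; -2.49 without the barcodes over the limit of endothelial, stromal, Schwann or immune markers) and *Fos*, an immediate early transcription factor, at 340 and 181 CPM (-0.90, -1.08 to -0.72). *Atf3*, a stress-induced transcription factor, had 79 UMIs in WT and 3 UMIs in *Npc1*-/- cycling cells, a log2 ratio of -4.48 with an interval from -7.00 to -3.09. The list median was -1.10 in non-cycling cells, of similar size, with 20 genes compared. Handling of the pools and genotype cannot be told apart with 1 library each.

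Of the other groups in cycling cells, α identity genes had a median between the genotypes of 0.02 over 27 genes and granule genes of -0.08 over 29 genes. With their whole interval, 3 α identity genes lay above and 7 below the median gene, and 4 and 8 granule genes (6.65% and 6.05% of all genes). The medians in cycling cells were 0.03 over 47 lysosomal genes and 0.06 over 76 oxidative phosphorylation genes. Of these 76 genes 55 lay above the median gene, 17 of them with their whole interval (6.65% of all genes did), and 1 lay below with its whole interval. The median was 0.07 over the same number of genes in non-cycling cells. Integrated stress response genes had a median of -0.23, with 11 of 14 below the median gene and 4 with their whole interval (6.05% of all genes did), and of -0.25 over 12 genes in non-cycling cells. Sterol synthesis and uptake genes, of interest because cholesterol from lysosomes represses them, had a median of 0.22 over 17 genes in cycling and 0.42 over 16 genes in non-cycling cells. *Msmo1*, a sterol demethylation enzyme, stood at 10.5 CPM in WT against 23.5 CPM in *Npc1*-/- cycling cells (1.16, 0.44 to 1.96). *Idi1*, an isoprenoid enzyme of the same pathway, was on the other side, at 17.8 and 9.21 CPM (-0.92, -1.79 to -0.12). Of granule genes *Chga*, chromogranin A, was higher in *Npc1*-/- cells, at 3324 and 4117 CPM in cycling and 3518 and 4518 CPM in non-cycling cells, while *Chgb*, chromogranin B, was lower in cycling cells (732 and 555 CPM, -0.38) and higher in non-cycling cells (665 and 788 CPM, 0.22).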

How the data were processed

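Single cell RNA sequencing gave 1 WT and 1 *Npc1*-/- library, each from the pooled islets of 3 mice. The authors deposited raw UMI counts of 31053 genes for the barcodes that Cell Ranger called as cells. Per the labels the reads were processed with Cell Ranger 3.1.0 against mm10 and then with Seurat 4.0.3, and the 3′ reagents were version 3, whereas the methods name version 2. The deposited counts were neither normalized nor filtered by the study's limits.

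The filters of the methods were applied here, except for the removal of doublets, which the methods also list. A cell was kept with a mitochondrial share below 10%, with over 1000 genes detected and with less than 50000 UMIs. Haemoglobin genes were to make up no more than 0.1% of its UMIs, as the stated limit was read. Doublets were scored with Scrublet (scanpy 1.11.5) but not removed in the values reported, because its own threshold marked only 65 WT and 40 *Npc1*-/- cells, 1 of them a cycling cell. The alternative dropped the cells that scored highest, as many as the expected rate of 0.8% per 1000 barcodes gives (6.86% and 6.12% of cells).

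The UMIs of all cells in a class were added up per gene and expressed as CPM. Log2 ratios were computed after adding 0.5 counts and set relative to the median of genes with at least 10 CPM in either pool. Because cells are not replicates, no test was made. Exact 95% intervals, for counting error only, follow Clopper and Pearson for shares, the Poisson distribution for summed counts and the binomial distribution, conditional on the total, for ratios. In the smaller cycling pool a gene at 5 CPM rests on 10.9 UMIs and one at 10 CPM on 21.7 UMIs. Shares were repeated after thinning to 10000 UMIs.

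The cells, the 20 gene lists and the marker lists were chosen with earlier results of these data known. Named genes, beside list members, were the 15 highest and the 15 lowest by ratio of cycling over non-cycling cells in both libraries, from 20 CPM on and without the genes of the rule, and the 10 highest and 10 lowest of *Npc1*-/- over WT cycling cells from 50 CPM on, with *Npc1*, *Xist* and the markers of the cells. The alternatives were other limits on mitochondrial share, UMIs, *Mki67* and *Top2a* and low expression, doublet removal, a stricter hormone purity (*Gcg* of at least 20% and insulin under 2% of UMIs), depth-matched comparison cells, the mean of each cell's CPM, the edgeR 4.0.16 TMM factor and CPM without centring. Chosen after seeing the data were the removal of barcodes with endothelial, stromal, Schwann or immune markers at 2 limits, of shared barcodes, and of all doubtful cells together, and a centring without cell cycle genes. Some genes that the rule or the lists hold are not reported here. The code was tested on simulated data. Gene positions are those of GENCODE vM21 on GRCm38. The software was R 4.3.3 and Python 3.11.15 with pandas 2.3.3, matplotlib 3.10.9, scipy 1.17.1 and numpy 2.4.6.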

Additional observations from a re-analysis of the deposited data

Results flagged for a closer look

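*Klf2* was on opposite sides of its non-cycling neighbours in the genotypes. The log2 ratio of cycling over non-cycling cells was 0.44 in WT and -0.85 in *Npc1*-/- islets, with intervals of 0.15 to 0.72 and -1.57 to -0.26, and the difference was not tested. It rested on 124 UMIs in WT and 23 UMIs in *Npc1*-/- cycling cells, 25.8% and 21.7% of them in 1 cell, and the part of that cell was not tested.

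*Sparc* differed likewise, with 0.52 in WT and -1.45 in *Npc1*-/- islets (0.29 to 0.73 and -1.88 to -1.07), and the difference was not tested. Of its UMIs in cycling cells 62.6% of 211 in WT and 75.0% of 56 in *Npc1*-/- islets came from 1 cell, and the ratio of *Npc1*-/- over WT cycling cells, -1.87, was 0.07 without the barcodes with 10 or more UMIs of an endothelial, stromal, Schwann or immune type and 0.027 without the highest doublet scores.

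A few *Gcg*-leading barcodes outside the filters also met the limit for cycling. Of 3 *Npc1*-/- barcodes with 50000 or more UMIs 1 did, where WT had no such barcode. Of 35 *Npc1*-/- barcodes with 1000 genes or fewer 2 did (5.71%, interval 0.700% to 19.2%), against 0 of 45 in WT, where the Clopper-Pearson upper bound was 7.87%. Barcodes with 10% or more mitochondrial UMIs met it in 5 of 49 cases in WT (10.2%, interval 3.40% to 22.2%) and 3 of 43 in *Npc1*-/- islets (6.98%, interval 1.46% to 19.1%), intervals that held the 9.03% and 9.40% of the kept cells.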

How the results depend on the processing

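No paired analysis was possible because each genotype has 1 library and the labels give no replicate numbers. For the same reason no library was left out. Of the values that answer a comparison, 155 stayed in place under an alternative and 26 moved, and of those of single named genes 1035 stayed, 53 moved and 12 changed sign. The comparisons moved in none of these alternatives: no upper UMI limit, mitochondrial share under 5%, at least 5 UMIs of *Mki67* and *Top2a*, comparison cells matched on UMI number, the TMM factor, CPM not relative to the median gene, the mean over cells, and, chosen after seeing the data, removal of shared barcodes and centring without cell cycle genes. Among single genes, the ratio of *Sparc* between the genotypes was -3.81 with at least 5 UMIs of *Mki67* and *Top2a*, and that of *Sst* 2.56 with a mitochondrial share under 5%.

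Counts of genes past 2-fold followed the floor on low expression. With a floor of 5 CPM, 204 genes were higher and 315 lower in *Npc1*-/- cycling cells, where 10 CPM gave 73 and 130, with 50 CPM 4 and 17, and with no floor 1500 and 1944. Between cycling and non-cycling cells in both libraries, 50 CPM left 271 genes higher and 18 lower, where 10 CPM gave 716 and 101, and no floor gave 1264 and 500. In cells thinned to 10000 UMIs a limit of 1 UMI called 16.1% of WT and 15.8% of *Npc1*-/- *Gcg*-leading cells cycling, where 19.9% and 20.5% had at least 1 UMI before thinning.

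Leaving out doubtful cells moved the comparison of genotypes within cycling cells, where the reported medians were -0.25 for S phase and 0.26 for G2/M genes, and fewer cells were left in each case. Without the highest doublet scores the medians were -0.38 and 0.41, 134 genes were 2-fold higher and 111 lower, and the log2 ratios were -0.18 for *Sst*, 0.027 for *Sparc* and 0.27 for *Apoe*. With stricter hormone purity they were -0.42 and 0.52, with 131 genes higher and 101 lower, and -0.34, 0.11 and 0.29, and *Kpna2* stood at 1.47, *Cep89* at 1.46, *Kif20a* at 1.37 and *S100a10* at 1.99. Chosen after seeing the data, leaving out the barcodes with 10 or more UMIs of an endothelial, stromal, Schwann or immune type gave 82 genes 2-fold lower, 0.066 for *Sparc* and 0.13 for *Apoe*. With doublets, impure cells and these barcodes all left out the medians were -0.49 and 0.47, with 161 genes higher and ratios of -0.35, 0.031 and 0.33. A limit of 3 UMIs summed over the 41 markers of these types (duct and acinar markers were not among them), the first tried after seeing the data, left 66 WT and 53 *Npc1*-/- cells and gave -0.61 and 0.61, with 192 genes higher, 220 lower and *Sst* at -1.73. The S phase median stayed negative and the G2/M median positive in all of these, and the cause of the wider separation was not tested.

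The cycling pools held 2188491 and 2171663 UMIs, so that 10 CPM stands for 21.7 UMIs in the smaller, which limits the precision of scarce genes.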

Other observations

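Beside the lists, some abundant genes were 2-fold lower in cycling *Gcg*-leading cells of both libraries; they were picked after their values were seen. *Wnt4*, a Wnt ligand of mature endocrine cells, stood at 135 CPM in cycling and 274 CPM in non-cycling WT cells and at 147 and 312 CPM in *Npc1*-/- cells, log2 ratios of -1.08 and -1.10. *Upp1*, uridine phosphorylase, gave -1.66 and -1.38, and *Gpr119*, a lipid receptor of islet cells, -1.29 and -1.33. The 3 genes had ratios of like size in both genotypes.

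Among histone genes, whose copies are nearly identical so that reads may be shared between them, *Hist1h2ap* measured 592 CPM in WT against 972 CPM in *Npc1*-/- cycling cells (0.73, 0.63 to 0.83), and *Hist1h4i* at 108 and 64.9 CPM (-0.72). *Hist1h1b*, a linker histone, was level at 225 and 233 CPM. They too were picked after their values were seen. Replication-dependent histone transcripts mostly lack a poly(A) tail, and these libraries were primed on poly(A).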
